A study of Bombyx mori with 6 samples.

Results

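The UDP-glycosyltransferase (UGT) family of the silkworm, Bombyx mori, was examined in 6 RNA sequencing libraries. Members were the gene models whose product description, taken from the NR protein database, or from Swiss-Prot where NR gave none or an uncharacterized or hypothetical product, names a UDP-glycosyltransferase, UDP-glucosyltransferase, UDP-glucuronosyltransferase or ecdysteroid UDP transferase. This wording found 37 of 16877 gene models, 35 through NR and 2 through Swiss-Prot. A further gene with the family's protein domain, UGT34A2, is described in other words and is treated separately. Of the 37 members, 36 carry the Pfam domain of UDP-glucuronosyl and UDP-glucosyl transferases, a property that did not enter the choice.

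Of the 6 libraries, 3 were labelled siUFBP1, a small interfering RNA (siRNA) against the gene for UFBP1, and 3 siNC, a negative control siRNA. UFBP1, also called DDRGK1, is a membrane protein of the endoplasmic reticulum (ER) that takes part in attaching the small modifier UFM1 to proteins. The labels give the P50 strain and the fat body, which stores nutrients and detoxifies in insects, but they also name BmN, a silkworm cell line derived from ovary. Per the protocols, larvae on day 3 of instar 5 received 2.5 µg of either siRNA, and larvae of both groups were given the baculovirus BmNPV 12 h later. Fat body was taken at 24, 48 and 72 h, with no time, animal or pool assigned to a library, and the protocols also describe transfected BmN cells. P-values below rest on the scatter among replicate libraries alone, and that scatter may be technical.

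UGTs are membrane-bound enzymes of the ER whose active site faces the lumen. They transfer a sugar from a UDP-sugar to small lipophilic molecules, which makes these more soluble and easier to excrete, and insects mostly use UDP-glucose. The family serves detoxification of plant compounds and insecticides, pigmentation and the inactivation of hormones, and in silkworms UGTs also glucosylate the flavonoids of coloured cocoons. Baculoviruses carry a UGT gene of their own, egt, which inactivates the ecdysteroid hormones of the host. UGT names give a number for the family, a letter for the subfamily and a number for the gene. Names came from the NR description or the KEGG match in the table for 33 members, and the other 4 are given by their gene model ID. The best Swiss-Prot match was a baculovirus ecdysteroid UDP-glucosyltransferase for 19 members, among them all 9 of the UGT33 run described below. No sequence of a member was used here.

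The libraries held 26610347, 25570725 and 53204480 counts for siUFBP1 and 28098267, 31760120 and 27100565 for siNC. The UFBP1 transcript (KWMTBOMO13599) stood at 32.7, 34.4 and 34.6 CPM in libraries labelled siUFBP1, against 36.5, 31.1 and 34.2 CPM in siNC. CPM here are read counts scaled to a common library total with TMM, which corrects for library size and composition. On the log2 scale the change was 0.0043 ± 0.056 (siUFBP1 over siNC, SE, edgeR adjusted p = 0.95), but it passed as lower at -0.14 with upper quartile scaling (adjusted p = 0.0362) and as higher at 0.80 with library size alone (adjusted p = 3.99e-13). The direction of the targeted transcript thus depended on the scaling, and the group names below stand for the labels only. Marker lists of other tissues moved with the labels. Silk gland genes took 10.1 to 11.8% of the counts in siUFBP1 and 0.050 to 0.053% in siNC, with 3 of 9 at 0 in siNC, and testis and sperm genes took 0.0769 to 0.0868% and 0.00683 to 0.00739%, with 46 of 86 at 0 in siNC. Fat body genes took 37.9 to 39.6% in siUFBP1 and 51.4 to 52.3% in siNC, cuticle genes 0.258 to 0.270% and 0.0493 to 0.0505%, and muscle genes 0.235 to 0.250% and 0.0527 to 0.0554%. Midgut genes took 0.270 to 0.291% in siUFBP1 and 0.226 to 0.232% in siNC, but their TMM sum was 2103 to 2123 CPM in siUFBP1 and 2987 to 3029 CPM in siNC. Of the 109 midgut genes, 62 were at 0 in siNC. Among the 33 tested, 23 passed as higher and 8 as lower with TMM, beside 40.1% and 28.3% of all genes tested. A higher share but a lower TMM sum in siUFBP1 was also seen for Malpighian tubule, hemocyte and ovary genes. Malpighian tubule sums were 636 to 655 CPM in siUFBP1 and 921 to 956 CPM in siNC. Hemocyte sums were 228 to 235 CPM in siUFBP1 and 320 to 335 CPM in siNC. Ovary sums were 52.5 to 53.8 CPM in siUFBP1 and 62.1 to 62.9 CPM in siNC. The part of these shifts in the UGT results was not tested, and in bulk RNA fewer cells of a type cannot be told apart from less RNA per cell.

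On the TMM scale, most of the UGT genes with enough counts were lower in libraries labelled siUFBP1. A small set in the UGT40 and UGT33 groups was much higher, and the low-count gene UGT50A1 was also higher. Of the 37 members, 20 passed the filter on low counts. Lower calls numbered 14 among these 20 and higher calls 5, and UGT42A1 alone did not pass (edgeR's quasi-likelihood test, adjusted p threshold 0.05). Of all 10729 genes tested, 28.3% were lower, 40.1% higher and 68.4% called in either direction, so the 14 lower members stand beside a lower background share and the 5 higher members beside a higher one. At a change of at least 2-fold, 5 members were higher and 5 lower, against 22.6% and 5.08% of all genes. The groups did not overlap in CPM for 19 of the 20, where 71.2% of all genes tested did not overlap. The median log2 fold change was -0.53 over the 20 members and 0.11 over all genes tested.

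The counts depended on the scaling of the libraries. With library size alone, 10 members passed as higher and 5 as lower, and 5 missed the threshold, where 80.1% of all genes were higher and 4.22% lower. That scaling moved the median of all genes up by 0.80 on the log2 scale. The member median moved with it, to 0.27, and stayed below the median of all genes by 0.65 in either scaling. A change of scaling shifts all genes by nearly the same amount, so this gap could hardly differ and is no separate check. Upper quartile scaling called 33.9% of all genes higher and 35.5% lower, and 5 and 14 members. In TMM, upper quartile scaling and library size alone, the same 5 members were higher: UGT40S1, UGT40A1, UGT50A1, UGT33K1 and KWMTBOMO16422. The 5 that were lower in all 3 scalings were KWMTBOMO04047, KWMTBOMO04049, UGT41A3, UGT41A2 and UGT33D2. The other 9 lower members either turned higher with library size alone (5) or no longer passed (4).

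**Figure D1:**
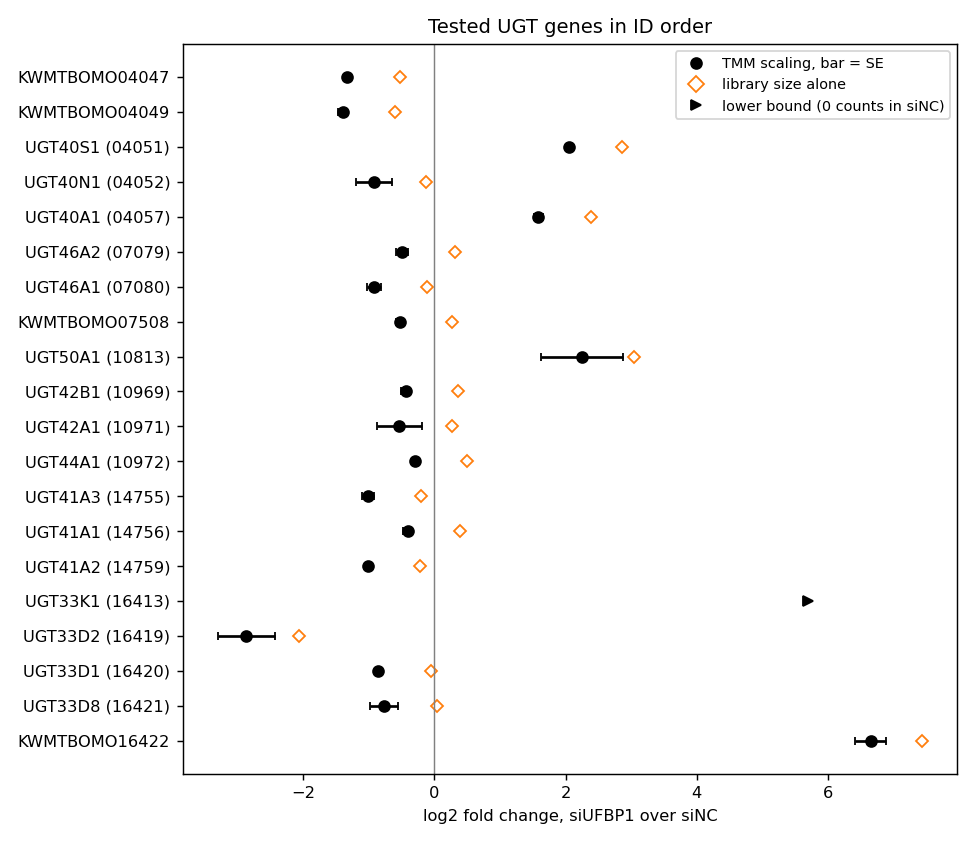
Log2 fold changes, siUFBP1 over siNC, of the 20 tested UGT genes in the order of their IDs, with TMM scaling (filled points, bars are SE) and with library size alone (open diamonds). UGT33K1 had 0 counts in siNC and is drawn only at its lower bound of 5.69, without a diamond. In both scalings, 5 genes, UGT33K1 among them, passed as higher and 5 passed as lower.

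The family as a whole took a small part of each library. Its counts were 0.0406, 0.0419 and 0.0449% of the total in siUFBP1 and 0.0290, 0.0302 and 0.0292% in siNC, so the siUFBP1 libraries were higher on this raw scale. On the TMM scale the sum over members was 322 ± 4.18 CPM in siUFBP1 and 388 ± 7.34 CPM in siNC (SD, n = 3 each), which is the other direction. Shares within the family do not depend on the scaling of a library. By that measure the 5 higher genes together made up 35.7% ± 0.845 of the family's counts in siUFBP1 and 6.75% ± 0.165 in siNC (SD, n = 3 each). These 5 were picked as higher from the same counts, so a larger share in siUFBP1 was built into the choice.

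Members lie next to each other in the table's ID order. Of 3030 gene pairs whose ID numbers differ by at most 2 and which could both be matched to RefSeq genes, 99.5% were on the same RefSeq chromosome within 10 genes of each other, so ID order was read as gene order. Of the 37 members, 33 fell into 7 runs with gaps of at most 5. The runs are described below by their UGT families.

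The UGT40 run gained the most in its share of the family's counts, at 39.2% ± 0.249 in siUFBP1 and 25.4% ± 0.206 in siNC (SD, n = 3 each). It spans 8 members from KWMTBOMO04047 to KWMTBOMO04059, of which 5 were tested, 2 higher and 3 lower. UGT40S1 (KWMTBOMO04051), described as UDP-glucosyltransferase protein 3, stood at 70.7, 73.0 and 70.0 CPM in siUFBP1, against 17.0, 17.0 and 17.4 CPM in siNC. All 3 siUFBP1 libraries lay far above all siNC libraries, a 4.16-fold difference with a log2 fold change of 2.06 ± 0.05 (SE, edgeR adjusted p = 8.47e-20). Its share of the family's counts was 22.1% ± 0.515 in siUFBP1 and 4.41% ± 0.0920 in siNC (SD, n = 3 each), and in siUFBP1 it had the most counts of any member. UGT40A1 (KWMTBOMO04057), which KEGG describes as a phenol UDP-glucosyltransferase, stood at 25.8, 27.9 and 26.2 CPM in siUFBP1, against 8.95, 9.15 and 8.41 CPM in siNC. It was 3.00-fold higher, with no overlap and a log2 fold change of 1.59 ± 0.07 (SE, edgeR adjusted p = 8.22e-15).

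The 3 other tested genes of this run were lower. KWMTBOMO04047, a UDP-glucosyltransferase, stood at 18.1, 16.5 and 18.8 CPM in siUFBP1, against 44.4, 45.8 and 44.6 CPM in siNC. KWMTBOMO04049, known only by its Swiss-Prot match to ecdysteroid UDP-glucosyltransferase, stood at 9.43, 9.27 and 10.7 CPM in siUFBP1, against 25.5, 26.2 and 27.0 CPM in siNC. Neither gene showed overlap, and they were 2.50-fold and 2.64-fold lower, with log2 fold changes of -1.32 ± 0.06 and -1.40 ± 0.07 (SE). UGT40N1 (KWMTBOMO04052) was a low gene, at 0.764, 0.785 and 0.612 CPM in siUFBP1 and 1.59, 1.07 and 1.38 CPM in siNC. Its log2 fold change was -0.93 ± 0.28 (SE, edgeR adjusted p = 0.0053), and it did not pass with library size alone, where its value was -0.12. UGT40P1 and UGT40B3 reached at most 7 counts in any library, and UGT40B4 had none in any.

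The UGT33 run held the genes with the largest fold changes. It spans 9 members from KWMTBOMO16413 to KWMTBOMO16423, including 2 of the UGT340 family, and of the 5 tested, 2 were higher and 3 lower. KWMTBOMO16422, uncharacterized in NR and matched by Swiss-Prot to ecdysteroid UDP-glucosyltransferase, had 445, 503 and 1030 counts in siUFBP1, against 5, 4 and 0 counts in siNC. It averaged 14.1 ± 1.06 CPM in siUFBP1 and 0.132 ± 0.12 CPM in siNC (SD, n = 3 each), with a log2 fold change of 6.65 ± 0.23 (SE, edgeR adjusted p = 9.54e-17). With each library left out in turn, this fold change lay between 6.14 and 7.24. UGT33K1 (KWMTBOMO16413) had 73, 75 and 194 counts in siUFBP1 and 0 in each siNC library. Against a floor of 3 counts over the siNC group it was at least 51.7-fold higher (edgeR adjusted p = 1.09e-10). The gene models on either side of UGT33K1 had the same pattern. KWMTBOMO16412, which has no description, had 150, 155 and 412 counts in siUFBP1 and 0 in each siNC library, and the vitellin-degrading protease gene KWMTBOMO16414 had 14, 13 and 26 in siUFBP1 and 0 in each siNC library.

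The UGT33D genes of the same run were lower. UGT33D1 (KWMTBOMO16420), the most abundant of them, stood at 22.1, 23.7 and 22.2 CPM in siUFBP1, against 38.5, 41.0 and 43.0 CPM in siNC. It was 1.81-fold lower with no overlap (log2 fold change -0.85 ± 0.05, SE), and with library size alone it was at -0.05 and did not pass. UGT33D2 (KWMTBOMO16419) had 14, 5 and 9 counts in siUFBP1 and 18, 47 and 36 counts in siNC, a log2 fold change of -2.87 ± 0.43 (SE, edgeR adjusted p = 5.01e-06). With each library left out in turn, this fold change lay between -3.48 and -2.41. UGT33D8 (KWMTBOMO16421) stood at 1.12, 1.93 and 1.40 CPM in siUFBP1, against 1.96, 2.67 and 2.87 CPM in siNC, so that the closest libraries of the groups almost met. Its log2 fold change was -0.77 ± 0.21 (SE), and with library size alone it was at 0.04 and did not pass. UGT340C1 reached at most 4 counts in any library and UGT33D6 at most 15, and UGT340C2 and UGT33D3 had none.

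**Figure D2:**
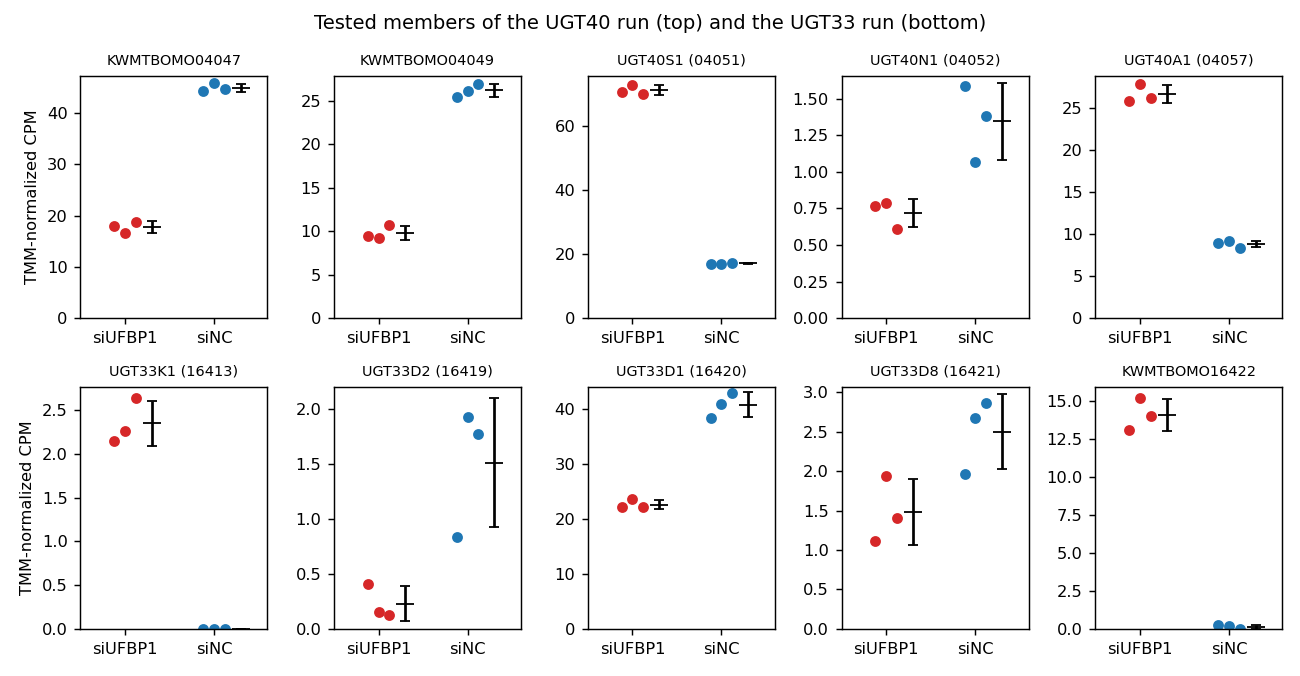
TMM-normalized CPM of the tested genes of the UGT40 run (top row) and the UGT33 run (bottom row) in each siUFBP1 and siNC library, with the group mean and SD (n = 3 each) beside the points. UGT40S1, UGT40A1, UGT33K1 and KWMTBOMO16422 are higher in all 3 siUFBP1 libraries, and the other 6 genes are lower. Each axis starts at 0.

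Neighbours in these 2 runs were called in opposite directions on the TMM scale. Among pairs of tested members whose IDs differ by at most 2, 10 had both genes called, and 4 of these had 1 gene higher and 1 lower. The 4 pairs were KWMTBOMO04049 with UGT40S1, UGT40S1 with UGT40N1, UGT33D1 with KWMTBOMO16422, and UGT33D8 with KWMTBOMO16422. The ratio of counts within a library needs no scaling and gives the change of a gene relative to its neighbour, but not which of them moved. With library size alone, UGT33D1 and UGT33D8 did not pass and KWMTBOMO16422 did. KWMTBOMO04049 had 0.133, 0.127 and 0.152 times the counts of UGT40S1 in siUFBP1, and 1.5, 1.54 and 1.56 times in siNC. UGT40S1 had 92.5, 93.0 and 114 times the counts of UGT40N1 in siUFBP1, and 10.7, 15.9 and 12.5 times in siNC. UGT33D1 had 1.69, 1.56 and 1.58 times the counts of KWMTBOMO16422 in siUFBP1, and 165 and 250 times in siNC replicates 1 and 2, and the third siNC library had no count of KWMTBOMO16422. Opposite neighbours were not particular to UGTs. Beside the 4 of 10 UGT pairs, 41.7% of all called pairs formed by the same rule were opposite (3111 of 7453). With library size alone, 2 pairs were called in opposite directions, KWMTBOMO04049 with UGT40S1 and UGT41A3 with UGT41A1.

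3 of the genes in these pairs have long gene models. The gene length implied by counts, FPKM and the library total was 3876 for KWMTBOMO04049, 3820 for UGT40S1 and 3729 for KWMTBOMO16422, in bp, against a median of 1891 bp over the tested members, of which 14 lay between 1500 and 2500 bp. Similar sequences and models that cover more than a single gene can share or mix reads. The sources used here do not say how such reads were counted, so values of close copies are uncertain.

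The UGT41 run moved in 1 direction on the TMM scale. UGT41A2 (KWMTBOMO14759), with the most counts of any member in siNC, stood at 45.0, 45.5 and 46.0 CPM in siUFBP1, against 87.2, 95.3 and 93.2 CPM in siNC. It was 2.02-fold lower (log2 fold change -1.01 ± 0.04, SE, edgeR adjusted p = 9.87e-16), and -0.21 and still lower with library size alone. UGT41A3 (KWMTBOMO14755) averaged 7.45 ± 0.265 CPM in siUFBP1 and 15.1 ± 1.76 CPM in siNC (SD, n = 3 each), with the same log2 fold change of -1.01. UGT41A1 (KWMTBOMO14756) lies between them in ID order and differed less, at 13.4 ± 0.184 CPM in siUFBP1 and 17.7 ± 0.871 CPM in siNC (SD, n = 3 each). Its log2 fold change was -0.41 ± 0.07 (SE), and it turned to 0.40 and higher with library size alone. The 3 genes together made up 20.6% ± 0.0859 of the family's counts in siUFBP1 and 32.1% ± 0.889 in siNC (SD, n = 3 each).

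The run of UGT42, UGT43 and UGT44 genes kept its place in the family. Its 5 members made up 16.0% ± 0.730 of the family's counts in siUFBP1 and 16.9% ± 0.841 in siNC (SD, n = 3 each). UGT44A1 (KWMTBOMO10972) stood at 34.9, 33.2 and 36.2 CPM in siUFBP1, against 42.0, 44.3 and 42.3 CPM in siNC, the smallest of the called changes at -0.30 ± 0.05 (log2, SE). UGT42B1 (KWMTBOMO10969) averaged 15.8 ± 0.722 CPM in siUFBP1 and 21.4 ± 2.11 CPM in siNC (SD, n = 3 each), a log2 fold change of -0.44 ± 0.07 (SE). Both turned higher with library size alone, at 0.50 and 0.36. UGT42A1 (KWMTBOMO10971) was the tested member that did not pass (log2 fold change -0.53 ± 0.34, SE, edgeR adjusted p = 0.175), with 26, 15 and 46 counts in siUFBP1 and 28, 18 and 13 in siNC. UGT43B1 and UGT42A2 were not tested and reached at most 13 and 8 counts in any library.

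Outside these runs, the UGT46 pair and 2 genes without near neighbours were tested. UGT46A1 (KWMTBOMO07080) stood at 4.53, 4.83 and 5.26 CPM in siUFBP1, against 9.56, 8.70 and 9.79 CPM in siNC, a log2 fold change of -0.92 ± 0.10 (SE), and it did not pass with library size alone (-0.12). Its neighbour UGT46A2 (KWMTBOMO07079) averaged 6.95 ± 0.146 CPM in siUFBP1 and 9.77 ± 0.852 CPM in siNC (SD, n = 3 each), or -0.49 ± 0.09 on the log2 scale (SE). It turned to 0.32 and higher with library size alone. KWMTBOMO07508, described as UDP-glucuronosyltransferase 1-7C-like, averaged 23.8 ± 1.16 CPM in siUFBP1 and 34.4 ± 1.47 CPM in siNC (SD, n = 3 each). Its log2 fold change was -0.53 ± 0.06 (SE), and 0.27 and higher with library size alone. UGT50A1 (KWMTBOMO10813), of a family conserved across insects and matched by Swiss-Prot to a human ceramide galactosyltransferase, had 31, 10 and 55 counts in siUFBP1 and 4, 0 and 5 in siNC. It was higher by a log2 fold change of 2.26 ± 0.62 (SE, edgeR adjusted p = 0.00316), with no overlap between groups in CPM. Without siNC replicate 2 the value was 1.61 and without siNC replicate 3 it was 2.88, and both passed.

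The remaining members had few or no counts. Of the 37, 4 had no count in any library, and 7 had counts in siUFBP1 only. Of those 7, UGT33K1 alone passed the filter, and the 6 others (the UGT33R1 models KWMTBOMO00917 and KWMTBOMO00918, UGT33R2, a UGT39C1 model, UGT39B1 and UGT340C1) reached at most 17 counts in a library. Members with at least 1 count numbered 26, 27 and 32 in siUFBP1 and 24, 23 and 22 in siNC, and the library with 32 is the deepest. UGT48C1 had 0, 7 and 22 counts in siUFBP1 and 9, 16 and 7 in siNC, and UGT47A1 had 3, 2 and 12 in siUFBP1 and 3, 0 and 2 in siNC. UGT39B1 had 7, 5 and 17 counts in siUFBP1 and 0 in each siNC library. It passed as higher when no count filter was used (edgeR adjusted p = 0.00812) and by DESeq2's Wald test (adjusted p = 0.0118), and its groups did not overlap. UGT42A2, with 2, 0 and 0 counts in siUFBP1 and 6, 8 and 0 in siNC, passed as lower by DESeq2's Wald test (adjusted p = 0.0495) but not by edgeR without a filter (adjusted p = 0.0746). The other untested members with counts passed neither test where they had an adjusted p.

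**Figure D3:**
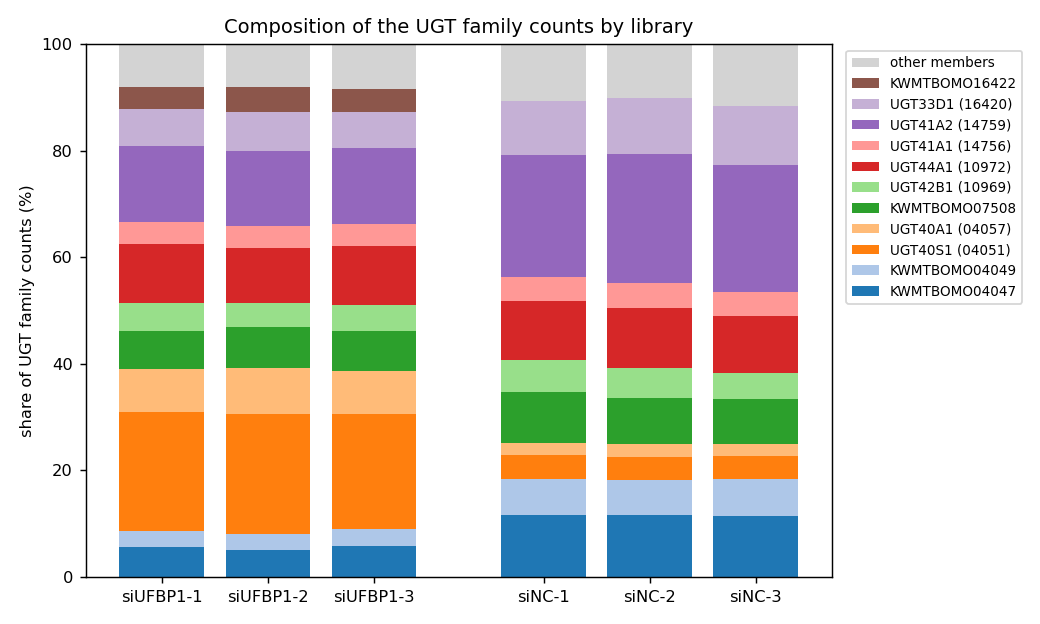
Share of the UGT family's counts, in percent, taken by each member with over 4% in either group, for the 3 siUFBP1 libraries (left) and the 3 siNC libraries (right). UGT40S1 takes 22.1% on average in siUFBP1 and 4.41% in siNC, and UGT41A2 takes 14.1% in siUFBP1 and 23.7% in siNC.

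Levels of different members were compared per length, with the authors' FPKM values, which scale by gene length and library size. The order thus depends on the lengths of the gene models, whose completeness was not tested. KWMTBOMO07508 has the shortest implied length of the tested members, 916 bp, whereas that of UGT40S1 is 3820 bp. In siUFBP1, KWMTBOMO07508 had 769, 825 and 1762 counts, fewer than the 1531, 1506 and 3382 of UGT41A2. In siUFBP1, KWMTBOMO07508 came first at 34.1 ± 2.28 FPKM and UGT41A2 second at 32.0 ± 1.56 FPKM, and their ranges overlapped (SD, n = 3). UGT40S1 at 24.5 ± 0.730 and UGT44A1 at 22.3 ± 1.71 FPKM followed, also with overlap, and then UGT40A1 at 18.0 ± 0.874 and UGT33D1 at 16.3 ± 0.691 FPKM (SD, n = 3), whose ranges did not overlap. In siNC, UGT41A2 came first at 37.7 ± 2.01 FPKM and KWMTBOMO07508 second at 28.7 ± 1.46 FPKM (SD, n = 3), with no overlap. KWMTBOMO04047 at 18.2 ± 0.576, UGT33D1 at 17.2 ± 0.882 and UGT44A1 at 16.0 ± 0.700 FPKM followed (SD, n = 3), and each overlapped the next. UGT42B1 was the sixth at 10.5 ± 1.16 FPKM. The first 6 genes of the groups had 4 in common. UGT40S1 and UGT40A1, the third and the fifth in siUFBP1, were at 3.42 ± 0.0218 and 3.47 ± 0.200 FPKM in siNC (SD, n = 3).

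**Figure D4:**
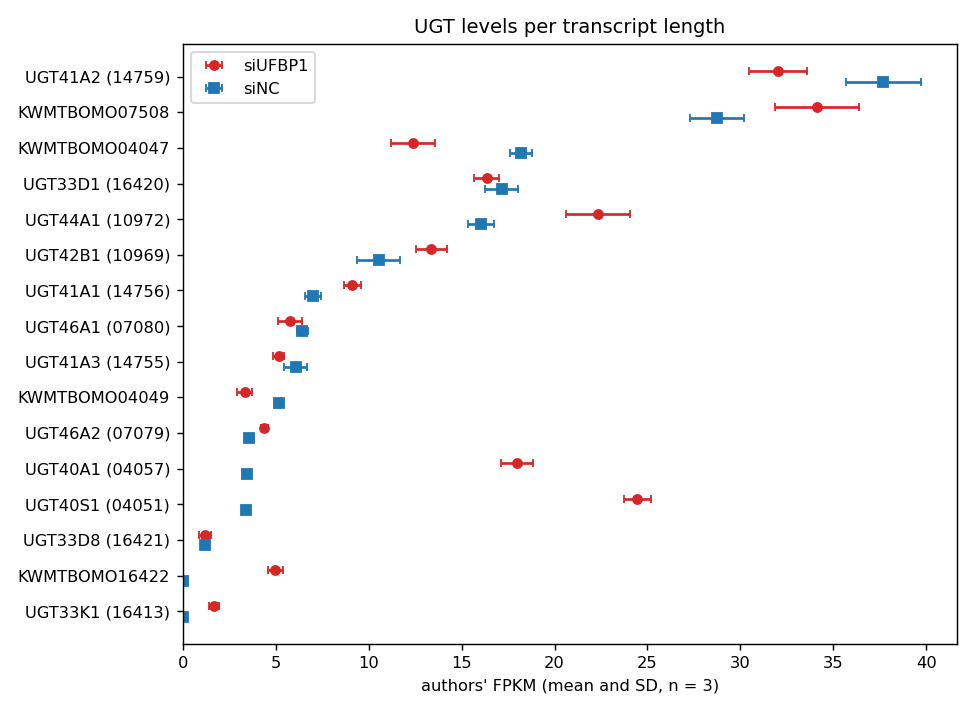
Authors' FPKM (mean and SD, n = 3 each) of the 16 UGT genes with a mean of at least 1 FPKM in either group, ordered by the siNC level. UGT40S1 and UGT40A1 stand furthest right of their siNC values, and KWMTBOMO16422 and UGT33K1 (1.68 against 0) also stand right. Genes that were lower with TMM can stand right here, among them UGT44A1 (22.3 in siUFBP1 against 16.0 in siNC) and KWMTBOMO07508 (34.1 against 28.7). KWMTBOMO04047 (12.4 against 18.2) and UGT41A2 (32.0 against 37.7) are among those that stand left. FPKM carry no correction for library composition.

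The authors' deposited table gives a fold change for 17 of the members and calls 4 up and 4 down at its own limits of a false discovery rate of 0.01 and a 2-fold change. Those it calls up are UGT40S1, UGT40A1, UGT33K1 and KWMTBOMO16422. Those that the authors' deposited table calls down are KWMTBOMO04047, KWMTBOMO04049, UGT41A3 and UGT41A2.

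A UGT gene outside the wording of the rule had more counts than the whole family in libraries labelled siUFBP1. UGT34A2 (KWMTBOMO15198, RefSeq symbol Ugt2), described as uridine diphosphate glucosyltransferase and carrying the same Pfam domain, was singled out after its values were seen. It had 49306, 48114 and 106369 counts in siUFBP1, against 102, 109 and 118 counts in siNC. It averaged 1449 ± 2.9 CPM in siUFBP1 and 5.02 ± 0.718 CPM in siNC (SD, n = 3 each), a 291-fold difference with a log2 fold change of 8.18 ± 0.05 (SE, edgeR adjusted p = 4.38e-30). Its counts were 4.57, 4.49 and 4.45 times those of all 37 members together in siUFBP1, and 0.0125, 0.0114 and 0.0149 times in siNC. Of the gene models on either side, KWMTBOMO15197, a JNK1/MAPK8-associated membrane protein gene, had 214, 203 and 547 counts in siUFBP1 and 85, 111 and 83 in siNC (log2 fold change 0.67 ± 0.12, SE), and the cyclin-dependent kinase 20-like gene KWMTBOMO15199 had 36, 49 and 132 counts in siUFBP1 and 0 in each siNC library. The silk gland genes were higher in the same libraries, with fibroin heavy chain at 78229, 75991 and 60777 CPM in siUFBP1 and 112, 111 and 99.4 CPM in siNC. Their part in the level of UGT34A2 was not tested.

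Genes that supply UDP-sugars, the donors of UGT reactions, were more often lower than higher on the TMM scale, where 28.3% of all genes were lower and 40.1% higher. Of 13 tested, 9 were lower and 2 higher, with a median log2 fold change of -0.55, and 7 were higher and 1 lower with library size alone (median 0.25), where 80.1% of all genes were higher and 4.22% lower. UDP-glucose 4-epimerase (KWMTBOMO12019), which interconverts UDP-glucose and UDP-galactose, was lower at -1.10 ± 0.04 on the log2 scale, or -0.30 by library size, whereas hexokinase type 2 (KWMTBOMO13777), which phosphorylates glucose, was at 1.96 ± 0.05 (SE). Of 11 nucleotide sugar transporters and related carriers of the solute carrier 35 family, 3 were lower, 2 higher and 6 did not pass, with a median of 0.09. The 2 gene models of UDP-glucose:glycoprotein glucosyltransferase, the ER folding sensor that uses the same donor, were lower at -0.90 ± 0.08 and -0.74 ± 0.08 (SE), and neither passed with library size alone.

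Genes of other steps of detoxification were called in both directions on the TMM scale, where 40.1% of all genes were higher and 28.3% lower. Among the multidrug resistance-associated proteins, which export conjugates, 3 of 10 were higher, 3 lower and 4 did not pass, with a median of -0.23. A multidrug resistance-associated protein 4-like gene (KWMTBOMO08974) stood at 35.8, 35.6 and 36.2 CPM in siUFBP1, against 0.187, 0 and 0 CPM in siNC. The multidrug resistance-associated protein 4 gene KWMTBOMO08968 stood at 36.6, 41.9 and 40.6 CPM in siUFBP1, against 1.82, 1.07 and 1.78 CPM in siNC. Both tested sulfotransferases, which conjugate sulfate, were lower (KWMTBOMO10554 at -1.22 ± 0.13 and KWMTBOMO10555 at -0.91 ± 0.13, SE), and with library size alone 1 was lower and the other did not pass. Of 7 tested regulators of detoxification and ecdysone signalling, 4 were lower and 3 did not pass, whereas 5 were higher with library size alone. The ecdysone receptor (KWMTBOMO05605) was at -0.83 ± 0.19 (log2, SE), or -0.02 by library size. Ecdysone 20-monooxygenase (KWMTBOMO03959), which makes the active moulting hormone, was at -1.49 ± 0.24 (SE), and -0.69 with library size alone.

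The UGT family was set beside 3 other detoxification families by count and median. Of 50 tested cytochrome P450 genes, which oxidize foreign compounds and hormones, 22 were higher and 17 lower, with a median log2 fold change of 0.07, near the shares of 40.1% and 28.3% and the median of 0.11 over all genes tested. Of 24 glutathione S-transferase genes, 9 were higher and 6 lower, with a median of 0.06, and of 18 carboxylesterase genes 9 were higher and 6 lower, with a median of 0.35. The UGT median of -0.53 was the lowest of the 4, and with library size alone it was 0.27 beside 0.87, 0.86 and 1.15. The differences between the families were not tested.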

How the data were processed

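The authors' deposited table holds raw read counts for each gene model of 6 libraries and FPKM (scaled for transcript length and sequencing depth by the authors), per the file headers, with log2 fold changes from their own DESeq2 comparison. Per the labels' protocols the library kit was SMARTER mRNA-Seq, and reads were processed with fastp and HISAT2, per the submitters' processing notes. The sources used here give no version, read counter, strand handling or genome build. The 16877 gene models include 6148 left out by filterByExpr, which hold 0.0479% of all counts. Scaling factors from TMM were 1.28, 1.30 and 1.38 for siUFBP1 and 0.763, 0.767 and 0.746 for siNC. Groups were compared by edgeR's quasi-likelihood test (robust, group as the only term) over 10729 genes with Benjamini-Hochberg adjustment and a threshold of 0.05. The test was also run on simulated counts, where few genes changed and in balanced directions. Those counts had no shift in composition, so that run says nothing about the choice of scaling. The standard error is the absolute log2 fold change over the square root of F. A fold over 0 siNC counts uses a floor of 3 counts over the group. In a library, 3 counts are 0.0564 to 0.117 CPM by library size alone, which is not the TMM scale of the other CPM. Floors cover counting error only, whereas the SD and SE also hold the scatter among replicate libraries. Replicates differed beyond sampling noise (chi-square per degree of freedom 2.68 to 14.4), so each library was kept.

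Members and gene lists were chosen with earlier results of these data known, and the lists get no test. List patterns matched product descriptions, and 52 matches that were other genes by description were removed. Members named by rule were the 6 with the highest FPKM in each group, up to 8 largest increases and 8 largest decreases with at least 1 CPM, opposite neighbours and called genes at 0 in a group. Every other tested member is also given, as are up to 2 called genes of most pathway lists. RefSeq (assembly ASM3026992v2) served only for names and gene order, and 30 members were matched. Alternatives were DESeq2 size factors, upper quartile scaling, library size alone and TMM without silk gland, testis and storage genes, no count filter and a minimum mean count of 10. Others were limma-voom, the Wald test of DESeq2, a block for replicate number, omission of each library, a minimum of 2-fold, limma-trend on FPKM (pseudocounts 1 and 0.1), other member rules and a wider neighbour gap. Software was edgeR 4.0.16, DESeq2 1.42.0, limma 3.58.1, R 4.3.3 and Python 3.11.15.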

Additional observations from a re-analysis of the deposited data

How the results depend on the processing

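With DESeq2 size factors, TMM without silk gland, testis and storage genes, limma-voom, a mean count of at least 10 and upper quartile scaling, 5 UGT members were higher, 14 lower and 4 neighbour pairs opposite. Upper quartile scaling gave a member median of -0.67 and put UFBP1 at -0.14 (log2). Without a count filter 6 were higher and 14 lower, where 4732 of all genes were higher and 2929 lower. By DESeq2's Wald test 6 were higher and 15 lower, where 4365 of all genes were higher and 2868 lower. By the NR description only, the members numbered 4 and 13, and with any description or domain 6 and 14. Library size alone gave 10 higher, 5 lower, a median of 0.27 and 2 opposite pairs. For all genes tested it gave 8593 higher and 453 lower, with a median of 0.92. It put UFBP1 at 0.80 and reversed UGT46A2 (0.32), KWMTBOMO07508 (0.27), UGT42B1 (0.36), UGT42A1 (0.27), UGT44A1 (0.50), UGT41A1 (0.40) and UGT33D8 (0.0398). FPKM also scale by library total. On log2(FPKM + 1), limma-trend gave 8 higher, 4 lower, a median of 0.23 and 2 opposite pairs, or without a filter 12, 4, 0.16 and 1. For all genes it gave 6625 higher, 406 lower and a median of 0.69, or without a filter 9111, 479 and 0.31. It put UFBP1 at 0.77, UGT46A2 at 0.23, KWMTBOMO07508 at 0.24, UGT42B1 at 0.32, UGT44A1 at 0.45, UGT41A1 at 0.33 and UGT33D8 at 0.00836, and UGT42A1, without a filter, at 0.0788. On log2(FPKM + 0.1) it gave 8 higher, 4 lower, a median of 0.25 and 2 pairs, with UFBP1 at 0.78, UGT46A2 at 0.28, KWMTBOMO07508 at 0.25, UGT42B1 at 0.34, UGT44A1 at 0.47, UGT41A1 at 0.37 and UGT33D8 at 0.00855. For all genes, log2(FPKM + 0.1) gave 6601 higher and 406 lower, with a median of 0.83. The cause of the differences between settings was not tested beyond the scalings given. A 2-fold minimum left 5 lower and 1 opposite pair, since that rule admits fewer. A gap of up to 5 IDs admits more and gave 7 opposite pairs of 18 called, beside 44.8% of all called pairs. Leaving out each library in turn gave 5 higher, 14 lower and 4 pairs each time, a median between -0.61 and -0.50, and UFBP1 between -0.062 and 0.0573. With the replicate number as a block, 5 were higher, 14 lower, the median was -0.52 and 4 pairs were opposite. Samples with the same number correlated at 0.0144, -0.0128 and 0.0194, and those with different numbers at -0.0424 to 0.0291. The numbers thus gave no sign of a pairing, but such values cannot exclude one. The block changed no call of a named member. Untested members had at most 62 counts in all libraries together, and absolute RNA amounts per cell are not measured, so the direction of small changes rests on the scaling.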
